A study of Mus musculus with 3 samples.

Results

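The genes described here are Spink10, A830009L08Rik, Cxcl14, Elavl4, Slco3a1 and P4ha1, which were listed because their transcripts were higher in melanotrophs of p27-null mice than in those of control mice. They are 6 of the 17775 genes with a row in any of the 3 count tables, and all 6 had a row in every table. They were chosen by their measured levels in melanotrophs of the library P27NULL against WT, so that difference is given as a description. The male and female P27NULL cells described below are the same cells split, so their levels against WT restate that difference, and the values for S2CK and for other cell types come from cells that the choice did not use. A melanotroph was defined as a cell with Pomc at 5% or more of its unique molecular identifiers (UMIs, each marking 1 captured transcript) and at least 2 UMIs of Pcsk2.

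The study sequenced single cells from the dissected intermediate lobe (IL) of the mouse pituitary, with 1 library for each of 3 genotypes. Mice were 3 months old, had been given tamoxifen by gavage, and carried 1 Sox9iresCreERT2 allele, a tamoxifen-inducible Cre recombinase expressed with Sox9, which is active in stem cells (SCs). The group WT had no other allele (Sox9iresCreERT2/+), P27NULL also lacked both copies of the gene of p27 (p27-/-), and S2CK was p27-/- with 1 Sox2 allele open to deletion by Cre (Sox2fl/+). The methods describe pooled animals and a Cre reporter at Rosa26, and the paper's text places Cre induction at birth where the labels give 4 weeks of age, a difference that was not resolved. As each genotype was 1 pooled library, no test between genotypes was possible, and intervals below are 95% intervals for counting error, which leave out the variation between mice and libraries.

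Melanotrophs are the endocrine cells of the IL and process the precursor encoded by Pomc into melanocyte-stimulating hormone. The protein p27, encoded by Cdkn1b, inhibits cyclin-dependent kinases, and mice without it develop IL tumors made of melanotrophs. The 6 genes have unrelated roles. Spink10 belongs to a family of secreted inhibitors of serine proteases, Cxcl14 encodes a secreted chemokine, Elavl4 encodes the neuronal RNA-binding protein HuD, Slco3a1 encodes an organic anion transporter, P4ha1 encodes a catalytic subunit of the prolyl hydroxylase that modifies collagen in the endoplasmic reticulum, and A830009L08Rik is a long noncoding RNA.

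By RefSeq on GRCm38.p6, the genes lie apart from each other. A830009L08Rik (91368990 to 91388085) and Cxcl14 (56288643 to 56296811) are both on chromosome 13, Elavl4 is on chromosome 4 (110203737 to 110351939), Slco3a1 is on chromosome 7 (74275418 to 74554780) and P4ha1 is on chromosome 10 (59323197 to 59373304). P4ha1 is a known target of hypoxia-inducible factor (HIF), and the bases just before A830009L08Rik, Elavl4 and P4ha1 are shown to compare which hold the HIF core letters. Both forms of the core, ACGTG and GCGTG, were searched on both strands, and matches are in capitals. Sequences run 5′ to 3′ along the strand of the gene and end at the base before the annotated gene. They are from chr13:91388086-91388335 (minus strand), chr4:110351940-110352161 (minus strand) and chr10:59323046-59323196 (plus strand).
A830009L08Rik: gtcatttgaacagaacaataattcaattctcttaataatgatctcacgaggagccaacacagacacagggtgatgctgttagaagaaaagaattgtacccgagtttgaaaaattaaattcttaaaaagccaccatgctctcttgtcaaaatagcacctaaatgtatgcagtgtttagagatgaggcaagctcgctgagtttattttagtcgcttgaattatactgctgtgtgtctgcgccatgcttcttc
Elavl4: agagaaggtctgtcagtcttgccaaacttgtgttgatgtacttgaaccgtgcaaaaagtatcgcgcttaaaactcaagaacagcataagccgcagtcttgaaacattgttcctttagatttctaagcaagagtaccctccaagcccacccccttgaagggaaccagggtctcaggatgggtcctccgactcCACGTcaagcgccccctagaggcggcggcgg
P4ha1: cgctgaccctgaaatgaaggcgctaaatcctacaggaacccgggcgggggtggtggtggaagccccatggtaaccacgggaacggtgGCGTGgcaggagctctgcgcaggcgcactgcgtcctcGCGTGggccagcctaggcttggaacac
P4ha1 held 2 matches, beginning 64 and 27 bases before the gene, Elavl4 held 1 on the opposite strand and the A830009L08Rik sequence held 0. Among the RefSeq promoter windows of all genes, 23.7% had a match in a stretch as long as that of P4ha1, 34.9% in one as long as that of Elavl4 and 38.6% in one as long as that of A830009L08Rik. Each stretch was taken from the 250 bases before a transcription start, beginning at the end farthest from it, as were the bases shown. Bases nearest the start are therefore left out of the 2 shorter stretches. Such a match is a description of letters and not of a binding site.

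WT had 2020 cells, P27NULL had 4153 and S2CK had 3488, with between 8332285 and 19239147 UMIs per library and at most 4 barcodes shared by 2 libraries. The definition took 1245 melanotrophs in WT, 3481 in P27NULL and 2968 in S2CK, with 6169078, 13431765 and 16921650 UMIs. Over these cells Pomc made up 17.4%, 13.7% and 14.1% of UMIs, and of the 7 melanotroph markers (among them Pcsk2, Pax7 and Drd2) all were detected in every library. Pomc and Pcsk2 were part of the definition. All 8 SC markers were detected in these cells of every library too, so detection alone does not identify the cells. WT had Cdkn1b, the targeted gene, at 33.2 CPM (counts of a gene per 1000000 UMIs), P27NULL had it at 29.3 CPM and S2CK at 16.8 CPM, so its transcript count does not set the library labelled P27NULL apart from WT, and each value named P27NULL is that of the library with this label. The libraries count the 3′ ends of transcripts, and whether such counts report the deletion was not tested.

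The libraries also differed in sex. Xist, which female cells transcribe from their inactive X chromosome, was missing from the WT table and was found in 661 of 3481 melanotrophs of P27NULL (19.0%) and in 2872 of 2968 of S2CK (96.8%). Conversely, UMIs of the Y-linked genes Kdm5d, Uty, Eif2s3y and Ddx3y were found in WT and P27NULL and numbered 0 in S2CK. A gene with no row was counted as 0. WT melanotrophs were therefore taken as male and those of S2CK as female, and P27NULL held 2820 cells without Xist, called male, beside 647 cells with Xist and no Y-linked UMI, called female. Male calls include female cells whose Xist was missed, and only P27NULL males against WT and S2CK against P27NULL females compare cells of 1 sex. The study describes the S2CK library as a pool of both sexes, which its UMIs do not show, so every contrast within 1 sex that uses S2CK rests on the reading from Xist and the Y-linked genes.

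WT melanotrophs had Spink10 at 12.8 CPM (10.1 to 16.0), P27NULL ones at 37.8 CPM (34.6 to 41.3) and S2CK ones at 7.15 CPM (5.93 to 8.54). The gene is on chromosome 18 (62548873 to 62664341). A830009L08Rik had a like order, with 12 CPM (9.42 to 15.1) for WT, 35.8 CPM (32.7 to 39.2) for P27NULL and 8.57 CPM (7.23 to 10.1) for S2CK. For both genes P27NULL was the high library, and S2CK was below WT. The intervals of WT and S2CK did not overlap for Spink10 and overlapped for A830009L08Rik.

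Cxcl14 was the exception among the 6. WT had it at 14.6 CPM (11.7 to 17.9), P27NULL at 40.9 CPM (37.6 to 44.5) and S2CK at 34.3 CPM (31.5 to 37.2), so that the libraries labelled P27NULL and S2CK were both high.

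WT had Elavl4 at 16.5 CPM (13.5 to 20.1), P27NULL at 36.7 CPM (33.5 to 40.1) and S2CK at 17.3 CPM (15.4 to 19.4), with WT and S2CK not distinguishable by counting error. For Slco3a1, WT was at 36 CPM (31.4 to 41), P27NULL at 47.9 CPM (44.2 to 51.7) and S2CK at 27 CPM (24.6 to 29.6). For P4ha1, WT was at 77 CPM (70.2 to 84.2), P27NULL at 130.6 CPM (125 to 137) and S2CK at 55.8 CPM (52.3 to 59.5). S2CK was the lowest library for both Slco3a1 and P4ha1, and the separation of P27NULL from WT was smallest for Slco3a1. With all cells thinned to 2000 UMIs that gene no longer differed between P27NULL and WT beyond counting error (log2 ratio 0.12, -0.23 to 0.47).

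**Figure D1:**
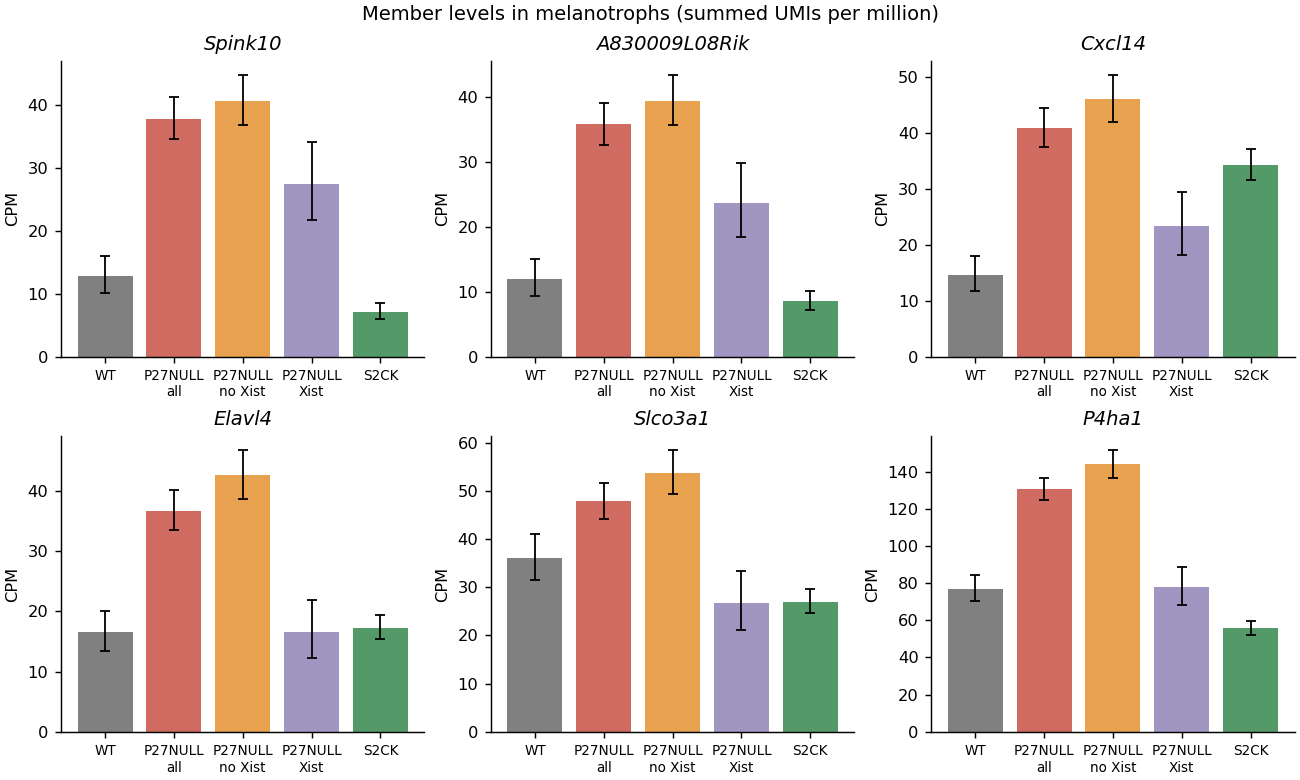
Level of each gene in melanotrophs, as CPM over the summed cells of a group with exact 95% Poisson intervals, in WT, in all P27NULL melanotrophs, in P27NULL melanotrophs without and with Xist, and in S2CK, each genotype being 1 library. For Elavl4 and P4ha1 the P27NULL cells with Xist stand at the height of WT, while for Spink10 and A830009L08Rik they stand above it and S2CK is lowest.

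On the log2 scale, the ratio of P27NULL to WT was 1.58 (1.22 to 1.95) for A830009L08Rik, 1.56 (1.22 to 1.92) for Spink10, 1.49 (1.17 to 1.83) for Cxcl14, 1.15 (0.84 to 1.47) for Elavl4, 0.76 (0.62 to 0.91) for P4ha1 and 0.41 (0.19 to 0.64) for Slco3a1. In this contrast, which chose the genes, 4 of the 6 were higher by 2-fold or more, against 1.07% of the 10011 genes with at least 100 UMIs. All 6 intervals lay above 0, against 21.6% of those genes. Ordered by this ratio among the 4424 genes with at least 500 UMIs, A830009L08Rik, Spink10 and Cxcl14 ranked 3, 4 and 5, Elavl4 ranked 13, P4ha1 35 and Slco3a1 291. The list is thus not the top of the order. Gm10800 and Gm26870 ranked 1 and 2, Gm26917 came directly after Cxcl14, Tagln3 (1.16) and Ogdhl (1.13) stood either side of Elavl4, 5830454E08Rik and Nmt1 either side of P4ha1, and Mxi1 and Cnih2 either side of Slco3a1.

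For S2CK against WT, which shares the WT library with the contrast above, Cxcl14 was the 1 member higher by 2-fold or more (log2 ratio 1.23, 0.91 to 1.57), where 1.2% of 10194 genes were. Spink10 (-0.84, -1.26 to -0.41), A830009L08Rik (-0.49, -0.90 to -0.06), Slco3a1 (-0.41, -0.65 to -0.18) and P4ha1 (-0.46, -0.63 to -0.30) had intervals below 0, as did 22.6% of all genes tested. The log2 ratio of Elavl4 was 0.07 (-0.26 to 0.41). Here genotype and sex cannot be told apart, and the choice of genes favoured low values in WT.

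For S2CK against all of P27NULL, which shares the P27NULL library, 4 of the 6 were lower by 2-fold or more, against 2.47% of 10952 genes. Spink10 differed most, at -2.40 (-2.70 to -2.11), followed by A830009L08Rik at -2.06, P4ha1 at -1.23, Elavl4 at -1.08, Slco3a1 at -0.83 and Cxcl14 at -0.26. All 6 intervals lay below 0, as did 38.7% of all genes tested. The genes were chosen as high in P27NULL, which favours lower values in S2CK, so nothing is read from these counts. S2CK read as female and P27NULL melanotrophs were mostly male, so genotype and sex cannot be told apart in this contrast either.

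The split of P27NULL melanotrophs by sex separated the genes further. Elavl4 was at 42.6 CPM (38.7 to 46.8, 441 UMIs) in male cells and 16.6 CPM (12.3 to 21.9, 49 UMIs) in female cells, the latter close to the 16.5 CPM of WT. Slco3a1 was at 53.8 CPM (49.4 to 58.5) in male and 26.7 CPM (21.2 to 33.3) in female cells, and P4ha1 at 144 CPM (137 to 152) and 78.2 CPM (68.4 to 89). For these genes the male cells were high, and the female cells were near or below the level of WT.

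Cxcl14 was at 46.1 CPM (42.0 to 50.4) in male and 23.4 CPM (18.2 to 29.6) in female cells. Spink10 was at 40.7 CPM (36.9 to 44.7) and 27.4 CPM (21.8 to 34.1), and A830009L08Rik at 39.4 CPM (35.7 to 43.4) and 23.7 CPM (18.5 to 29.9). For these 3 genes the male cells were again the higher group, but the female cells too had intervals above that of WT.

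The log2 ratio of male to female cells was 1.36 (0.93 to 1.82) for Elavl4, 1.01 (0.67 to 1.37) for Slco3a1, 0.98 (0.61 to 1.37) for Cxcl14, 0.88 (0.68 to 1.09) for P4ha1, 0.73 (0.36 to 1.12) for A830009L08Rik and 0.57 (0.22 to 0.93) for Spink10. All 6 intervals lay above 0, against 18% of 8940 genes, and 2 members reached 2-fold, against 1.03%. The median over the 6 was 0.93, and over all genes tested 0.12. Since the genes were chosen as high in a sum made mostly of male cells, genes chosen alike are the nearer comparison. Of the 16 genes with at least 500 UMIs that were higher by 2-fold or more in P27NULL than WT, 4 of them members, 10 had intervals above 0 for male over female cells, 1 had one below 0, and the median was 0.51. All 4 members are among the 10 and count in that median, so this set is not apart from them. Of the 9 neighbours named above, 5 had intervals above 0, namely Gm26917 (0.71), Tagln3 (0.70), 5830454E08Rik (0.67), Cnih2 (0.49) and Gm26870 (0.23), 0 had one below 0, and those of Gm10800, Ogdhl, Nmt1 and Mxi1 included 0. Male and female cells come from different pooled mice, so sex and mouse cannot be told apart.

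Within 1 sex, male P27NULL cells against WT gave log2 ratios of 1.67 (1.32 to 2.03) for Spink10, 1.72 (1.36 to 2.09) for A830009L08Rik, 1.66 (1.33 to 2.0) for Cxcl14, 1.37 (1.05 to 1.69) for Elavl4, 0.58 (0.35 to 0.81) for Slco3a1 and 0.90 (0.75 to 1.06) for P4ha1. Male cells held 10354289 of the 13431765 UMIs of P27NULL melanotrophs, so these ratios largely restate the values that chose the genes. The count at 2-fold or more was 4 of 6, against 1.31% of 9536 genes, and nothing is read from it. With female P27NULL cells in place of male, a contrast across sexes, only Spink10 remained above 2-fold (1.10, 0.63 to 1.56), against 0.313% of 7354 genes. A830009L08Rik was at 0.98 (0.49 to 1.47), Cxcl14 at 0.68 (0.21 to 1.15), Elavl4 at 0.00 (-0.52 to 0.51), P4ha1 at 0.02 (-0.21 to 0.25) and Slco3a1 at -0.43 (-0.82 to -0.05).

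S2CK against female P27NULL cells, the other contrast within 1 sex, left Spink10 lower (-1.94, -2.36 to -1.51) and A830009L08Rik lower (-1.47, -1.89 to -1.03) by more than 2-fold, where 2.08% of 9799 genes were. P4ha1 was lower by less (-0.49, -0.70 to -0.27). Elavl4 (0.06, -0.38 to 0.53) and Slco3a1 (0.01, -0.33 to 0.38) did not differ beyond counting error. Cxcl14 was higher in S2CK (0.55, 0.19 to 0.93), the opposite direction to that against all of P27NULL. The deficit of Elavl4 and Slco3a1 in S2CK against P27NULL was thus one against its male cells. Female P27NULL cells were also among those that chose the genes, which favours lower values in S2CK.

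**Figure D2:**
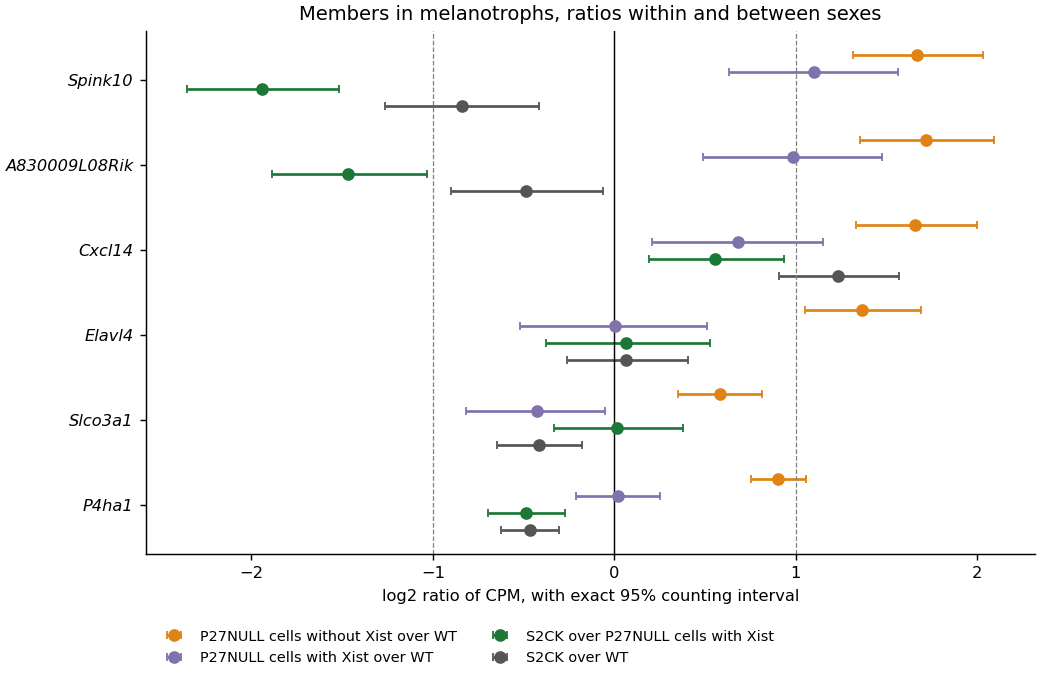
Log2 ratio of the level of each gene in melanotrophs with exact 95% counting intervals, for P27NULL cells without Xist over WT and S2CK over P27NULL cells with Xist, which compare cells of 1 sex, and for P27NULL cells with Xist over WT and S2CK over WT, which do not. Dashed lines mark 2-fold. P27NULL cells without Xist lie right of 0 for all 6 genes, and S2CK over P27NULL cells with Xist lies left of -1 for Spink10 and A830009L08Rik only.

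The depth of the cells differed as well, with medians of 4298 UMIs per melanotroph in WT, 2875 in P27NULL and 5060.5 in S2CK, and of 2710 in male and 3797 in female P27NULL cells. In 4 classes of UMIs per cell, P27NULL had the higher value than WT, as in the contrast that chose the genes, in 24 of 24 pairs of gene and class, and male P27NULL cells had the higher value than female ones in 24 of 24. The class under 2000 UMIs held only 55 melanotrophs of WT, with 1 UMI of A830009L08Rik. It held 81 female P27NULL cells, with 0 UMIs of Cxcl14 and 2 of Elavl4. No share over all genes was computed by class, and over all depths the median log2 ratio of all genes was also above 0, at 0.08 for P27NULL over WT and 0.12 for male over female cells. The male and female cells are also parts of those that chose the genes. Nothing further is read from either count of 24. In cells of at least 4000 and under 8000 UMIs, for example, WT had Spink10 at 9.33 CPM (6.25 to 13.4) and P27NULL at 33.8 CPM (28.7 to 39.5). In the same class Elavl4 was at 33.8 CPM (27.8 to 40.6) in male and 14.1 CPM (8.34 to 22.2) in female P27NULL cells. Slco3a1 came closest, with 38.3 CPM in WT and 41.4 CPM in P27NULL at 2000 to under 4000 UMIs.

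**Figure D3:**
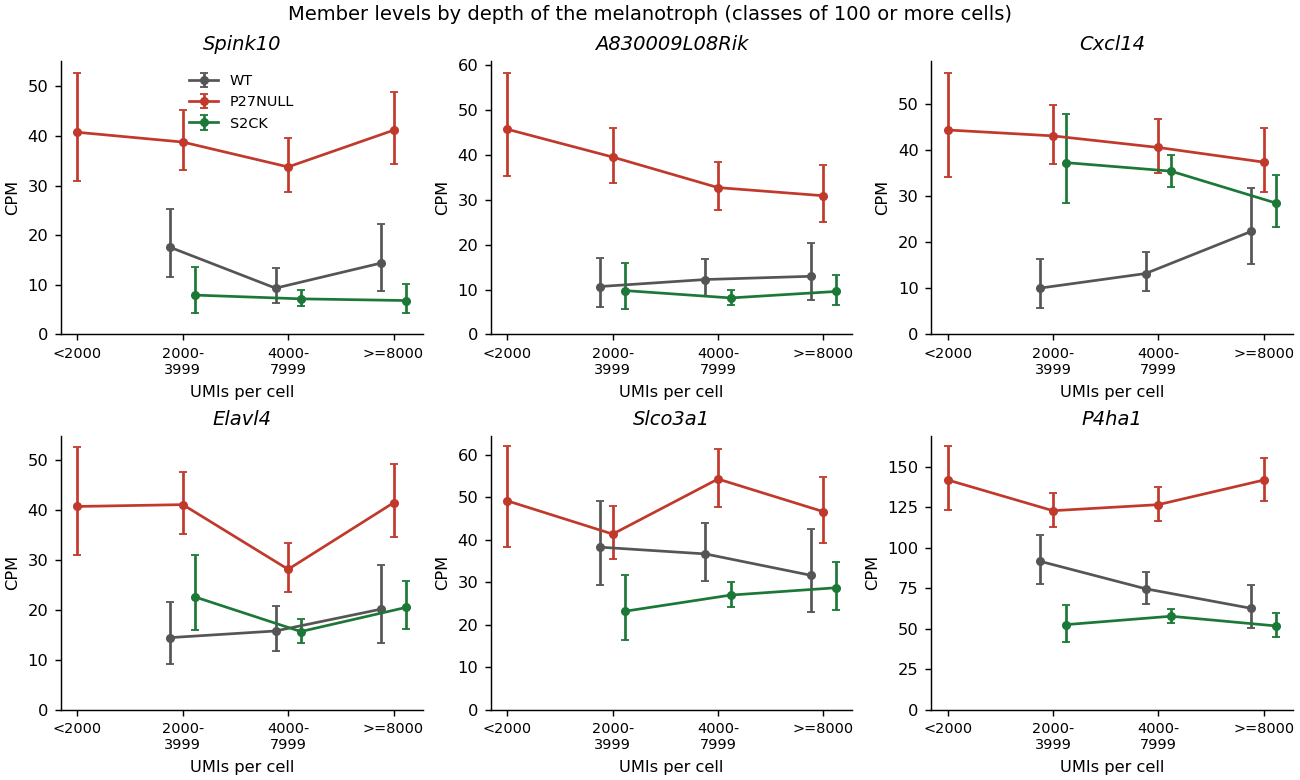
Level of each gene (CPM with exact 95% Poisson intervals) against the number of UMIs in the melanotroph, by library, for classes with at least 100 cells. P27NULL lies above WT in each class shown, by the least for Slco3a1, and for Cxcl14 S2CK lies near P27NULL.

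The UMIs of each gene were not confined to a few melanotrophs, although counts this sparse cannot show whether groups of cells differ. After each cell was thinned to 2000 UMIs, Spink10 was found in 184 of 2591 P27NULL cells (7.10%, 6.14 to 8.16%), and a Poisson count of the same mean would give 7.43%. In WT the share was 1.93% (1.23 to 2.89%) and in S2CK 1.37% (0.98 to 1.85%). Cxcl14 was found in 8.14% of P27NULL cells where an even spread gives 8.78%, and P4ha1 in 19.7% where it gives 21.0%. Across the 6 genes and 3 libraries the variance of UMIs per cell was 0.96 to 1.18 times the mean. The highest ratio, 1.18, was that of P4ha1 in P27NULL, where 1 melanotroph held 18 of its UMIs before thinning. These measures miss differences between groups. Elavl4 was found in 6.72% of thinned P27NULL cells where an even spread gives 6.86%, although it was at 43.0 CPM in male and 14.1 CPM in female cells. For comparison, without thinning Elavl4 was found in 11.9% of P27NULL melanotrophs (median 2875 UMIs) and in 1 of 100 P27NULL SCs (median 2151 UMIs).

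Nor were they seen in the same cells to any marked degree. In P27NULL, 276 thinned cells held UMIs of 2 or more of the genes where independence gives 264, and 39 held 3 or more where it gives 32.2. The largest excesses were those of Slco3a1 with P4ha1 (53 cells, expected 43.4), Cxcl14 with P4ha1 (49, expected 41.6), Spink10 with Cxcl14 (21, expected 15.0) and A830009L08Rik with Elavl4 (18, expected 12.1), and Elavl4 with P4ha1 fell short (26, expected 34.3). The correlation of detection ran from -0.03 to 0.04 over the 15 pairs, with a median of 0.01, beside 0.00 over all pairs of genes detected about as often. Correlations of this size in sparse counts are not a finding.

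**Figure D4:**
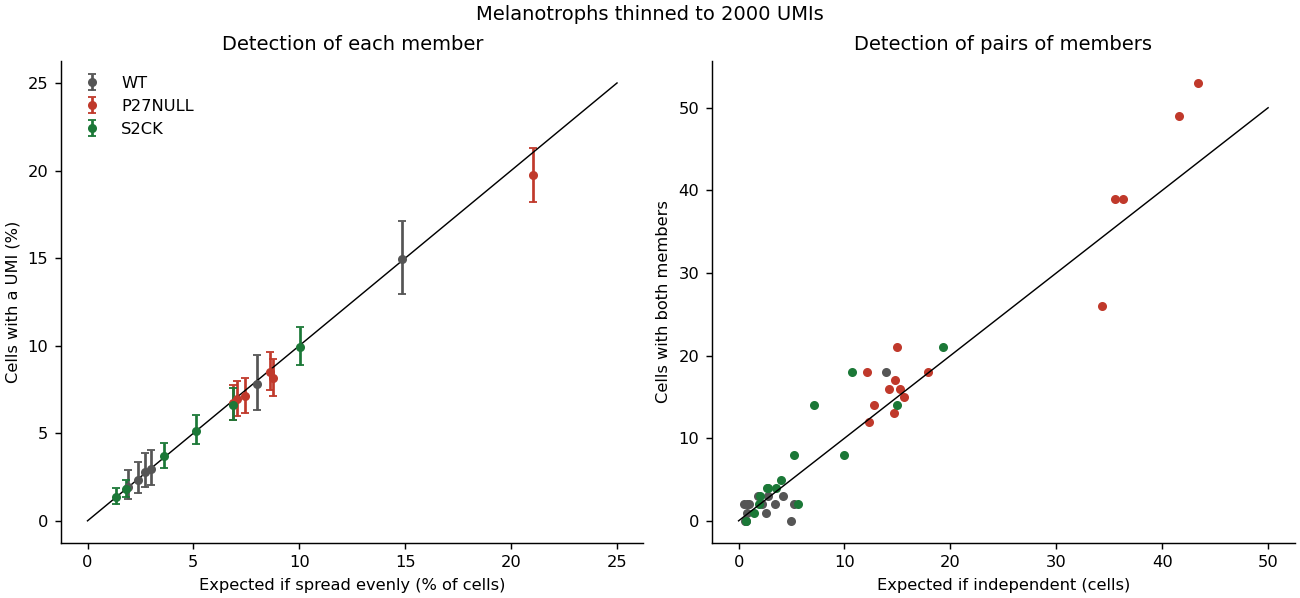
Melanotrophs thinned to 2000 UMIs each. Left, the percentage of cells with a UMI of each gene (exact 95% binomial intervals) against the percentage expected if UMIs were spread evenly over cells. Right, the number of cells with UMIs of both genes of a pair against the number expected from independent detection. Lines mark equality, and the points of all 3 libraries lie along them, with the highest 2 pairs at 53 and 49 cells against 43.4 and 41.6 expected.

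Joint clusters of all 3 libraries, made without the 6 genes, were compared next. In the 3 with at least 50 melanotrophs of both libraries, P27NULL was above WT, as in the contrast that chose the genes, in 17 of 18 pairs of gene and cluster. In the 5 with at least 50 of both sexes, male P27NULL cells were above female ones in 30 of 30. These cells are parts of those that chose the genes, and no share over all genes was computed, so nothing further is read from these counts. The cluster that held most WT melanotrophs (872 cells) also held 498 of P27NULL and 239 of S2CK. Within it WT had Spink10 at 12.9 CPM, P27NULL at 34.2 CPM and S2CK at 11.2 CPM, and Elavl4 was at 16.8, 28.6 and 17.2 CPM in the same order. Its P27NULL cells were split evenly by sex, with 253 male and 243 female cells, and Elavl4 was at 41.8 CPM (31.2 to 54.8) in the former and 16.4 CPM (10.4 to 24.6) in the latter. Slco3a1 was at 57.1 CPM (44.6 to 72.0) and 25 CPM (17.4 to 34.7) in the same cells. In the cycling cluster, led by Top2a and Cdk1, 484 P27NULL cells had Cxcl14 at 51.1 CPM (43.5 to 59.8) and P4ha1 at 146 CPM (132 to 160), and 54 WT cells had them at 11.1 CPM (2.29 to 32.4) and 62.9 CPM (36.7 to 101). For these genes the cycling cluster thus had the direction that chose them. Its P27NULL cells were mostly male, with 429 male and 50 female cells. The female cells had Cxcl14 at 28.6 CPM (13.1 to 54.3) and P4ha1 at 73.1 CPM (46.3 to 110), intervals that overlapped those of WT.

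In other cell types the genes parted ways. At the ratio of each gene to Pomc, melanotroph RNA released into the droplets would bring at most 4.35 UMIs of any of the 6 into the pooled other named types of a library. Spink10 was found with 31 UMIs in 358 such cells of P27NULL (27.2 CPM, 18.5 to 38.6), with 21 UMIs among 489 WT cells (14.3 CPM, 8.87 to 21.9) and with 4 UMIs among 280 S2CK cells (3.18 CPM, 0.87 to 8.14). A830009L08Rik had 26, 18 and 5 UMIs in the same order (22.8, 12.3 and 3.97 CPM). The log2 ratio of P27NULL to WT was 0.92 (0.08 to 1.80) for Spink10 and 0.89 (-0.03 to 1.85) for A830009L08Rik. Intervals above 0 were found for 11.9% of 10015 genes in this contrast. The pooled types differed in makeup, as gonadotrophs held 23.9% of these UMIs in WT, 40.7% in P27NULL and 11.2% in S2CK. Without gonadotrophs, a comparison added after the data were seen, the ratio was 0.22 (-0.98 to 1.37, 12 and 17 UMIs) for Spink10 and 0.27 (-0.99 to 1.49, 11 and 15 UMIs) for A830009L08Rik, so P27NULL and WT did not differ beyond counting error.

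Gonadotrophs, the anterior lobe cells that make luteinizing and follicle-stimulating hormone, had higher levels of both genes in P27NULL than WT. Spink10 had 4 UMIs in 47 WT gonadotrophs (11.4 CPM, 3.11 to 29.3), 19 UMIs in 124 of P27NULL (41.0 CPM) and 0 in 30 of S2CK, where the interval runs from 0 to 26.1 CPM. A830009L08Rik had 3, 15 and 0 UMIs. The log2 ratio of P27NULL to WT was 1.84 (0.25 to 3.86) for Spink10 and 1.92 (0.09 to 4.35) for A830009L08Rik. No share over all genes was computed for gonadotrophs, whose depth also differed, and the part of depth was not tested. P27NULL gonadotrophs without Xist had Spink10 at 34.6 CPM and A830009L08Rik at 32.1 CPM. The 12 with Xist and no Y-linked UMI had them at 88.7 CPM (5 UMIs) and 17.7 CPM (1 UMI). In SCs neither gene differed between WT and P27NULL beyond counting error, with 7 and 6 UMIs of each.

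Cxcl14 went the other way in gonadotrophs. WT had it at 271 CPM (220 to 332, 95 UMIs), P27NULL at 45.3 CPM (21 UMIs) and S2CK at 142 CPM (86.6 to 219, 20 UMIs). Median UMIs per gonadotroph had the same order, with 7287 in WT, 2611 in P27NULL and 4413 in S2CK, and the part of depth in this result was not tested. In P27NULL gonadotrophs without Xist it was at 44.4 CPM (26.3 to 70.2), so the lower level was also present within male cells. In the Pou1f1 lineage, which makes growth hormone, prolactin and thyrotropin, it was at 66.9, 78.6 and 102 CPM, and in SCs it had at most 3 UMIs per library. Gonadotroph markers were also higher in WT melanotrophs, where the 7 markers, all detected in each library, summed to 250 CPM against 79.6 CPM in P27NULL and 73.3 CPM in S2CK. Without the melanotrophs that held a UMI of Cga, Lhb or Fshb, Cxcl14 had a log2 ratio of P27NULL to WT of 1.52 (1.17 to 1.88).

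Outside melanotrophs, P4ha1 had the most UMIs in SCs, where WT had 195 CPM (86 UMIs), P27NULL 179 CPM (62 UMIs) and S2CK 68 CPM (36 UMIs). The log2 ratio of P27NULL to WT in SCs was -0.13 (-0.63 to 0.36), and that of S2CK to P27NULL was -1.39 (-2.03 to -0.78). Over all other named types it was 0.08 (-0.26 to 0.42) and -1.37 (-1.84 to -0.92). Single types with few UMIs did not all show this, as macrophages or microglia had 6 UMIs in each of P27NULL and S2CK (-0.11, -2.01 to 1.79). In gonadotrophs it was at 54.3 CPM (19 UMIs) in WT and 81.9 CPM (38 UMIs) in P27NULL, with a log2 ratio of 0.59 (-0.24 to 1.47). Elavl4 had at most 10 UMIs outside melanotrophs in any library, too few to compare. Slco3a1 had 33 UMIs in the pooled other types of WT, 20 in P27NULL and 23 in S2CK. Its log2 ratio of P27NULL to WT was -0.36 (-1.24 to 0.48). In connective tissue it was at 92.1 CPM (9 UMIs) in WT, 65.3 CPM (6 UMIs) in P27NULL and 85.9 CPM (9 UMIs) in S2CK.

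**Figure D5:**
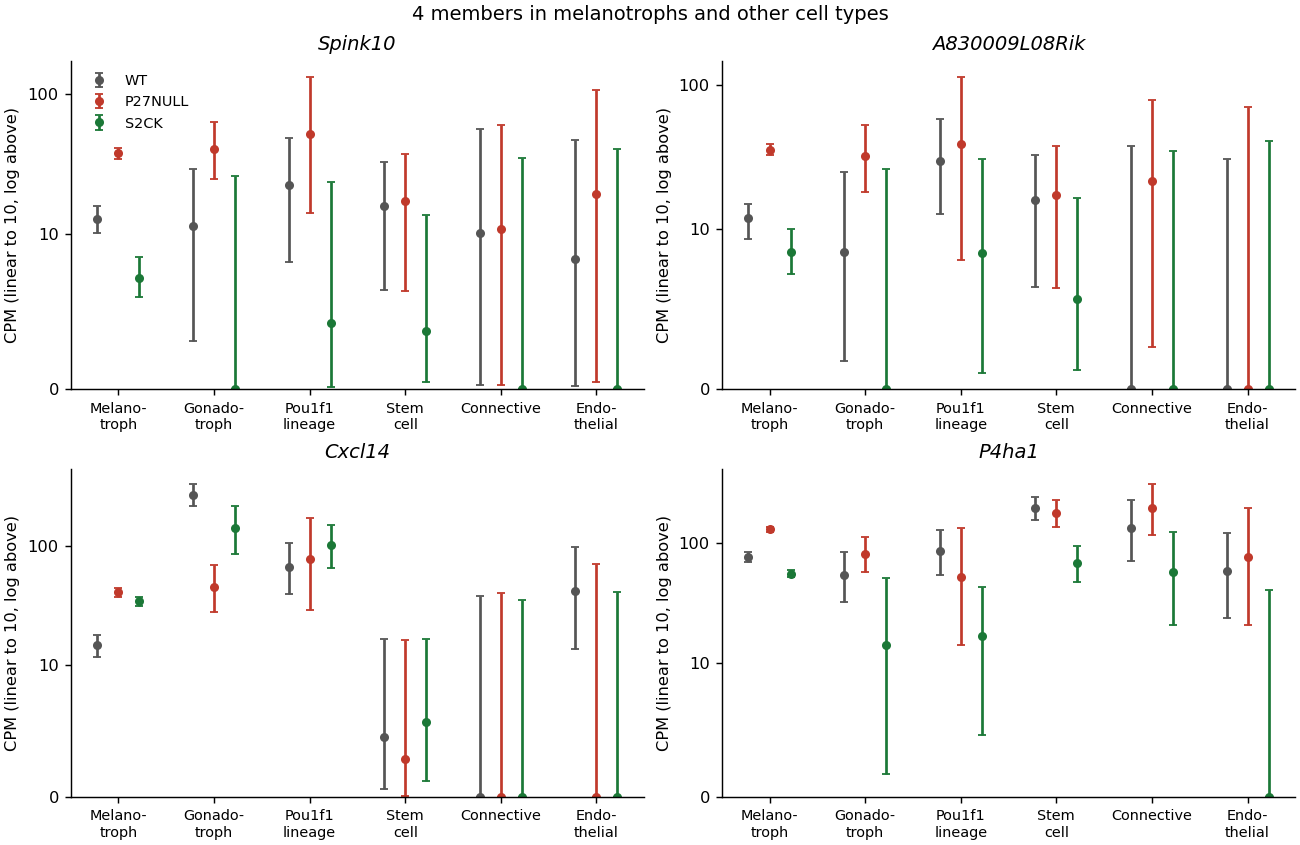
Levels of Spink10, A830009L08Rik, Cxcl14 and P4ha1 (CPM with exact 95% Poisson intervals, on an axis linear to 10 and logarithmic above) in melanotrophs and in 5 other cell types by library. Gonadotrophs of WT have the highest Cxcl14 (271 CPM), and P27NULL is the highest library for Spink10 in gonadotrophs as in melanotrophs.

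Related genes were examined in melanotrophs as lists. Of 32 HIF targets, 26 had at least 100 UMIs in P27NULL and WT together. Vegfa, the angiogenic growth factor, was the 1 gene at 2-fold or more, where WT had 1.46 CPM, P27NULL 7.07 CPM and S2CK 1.95 CPM, a log2 ratio of P27NULL to WT of 2.28 (1.29 to 3.45). Of all 10011 genes tested, 1.07% were at 2-fold or more. Vegfa reached 100 UMIs only through P27NULL, the group where it was high, and its WT level rests on few UMIs. Its place as the 1 gene at 2-fold is therefore not read as a result. It too was higher in male P27NULL cells, at 8.31 CPM against 2.03 CPM in female cells. Intervals lay above 0 for 16 of the 26 and below 0 for 1, where 21.6% and 8.87% of all genes did, and the median ratio was 0.30 beside 0.08 over all genes. Pfkp, a glycolytic enzyme (14.6, 21.9 and 11.8 CPM), and Slc2a3, a glucose transporter (4.21, 6.40 and 4.43 CPM), were the next largest, although the interval of the latter reached below 0. For S2CK against P27NULL, 21 of 27 intervals lay below 0, against 38.7% of all genes, and the median was -0.31, beside -0.16 over all genes. For male over female P27NULL cells, 13 of 24 intervals lay above 0 and 1 below, where 18% and 4.83% of all genes did. The median was 0.22, beside 0.12 over all genes. Whether an interval excludes 0 depends on the UMIs of a gene. Neither this list nor those below were matched for UMIs to all genes.

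Among 17 measurable neuronal RNA-binding protein genes, 10 intervals lay above 0 and 1 below for P27NULL against WT, with a median of 0.30, where 21.6% and 8.87% of all genes had such intervals. The relatives of Elavl4 were the leading ones. WT had Elavl3 at 7.29 CPM, P27NULL at 19.1 CPM and S2CK at 9.10 CPM (log2 ratio of P27NULL to WT 1.39, 0.93 to 1.88), and Elavl2 at 25.6, 43.9 and 25.6 CPM (0.78, 0.52 to 1.04). The RNA-binding protein gene Celf5 followed, at 7.94, 13.5 and 12.5 CPM. Elavl2 was higher in male than female P27NULL cells (0.40, 0.09 to 0.72), and for Elavl3 the interval touched 0 (0.48, -0.00 to 0.99).

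The partners of P4ha1 in collagen modification were examined next. Of 11 measurable genes 2 had intervals above 0, a share close to the 21.6% of all genes, one being P4hb, which encodes the other subunit of the enzyme (71.2, 91.0 and 72.0 CPM, log2 ratio of P27NULL to WT 0.35, 0.20 to 0.52), and P4hb did not differ between the sexes of P27NULL beyond counting error (-0.05, -0.24 to 0.15). P4ha2, which encodes another catalytic subunit, was at 13.6, 17.0 and 10.5 CPM, and Crtap at 4.05, 5.96 and 3.13 CPM. Of 19 chemokine and receptor genes only 3 were measurable. Cxcl13 was, like Cxcl14, above WT in the libraries labelled P27NULL and S2CK (22.7, 32.2 and 45.9 CPM), and Ccl27a (0.09, -0.03 to 0.22) and Cx3cl1 (0.09, -0.13 to 0.32) did not differ between P27NULL and WT beyond counting error. A list of protease inhibitors, most of them of serine proteases, had 8 measurable genes. Of these, 0 had an interval above 0, where 21.6% of all genes did. The cystatin Cst6, which is not a serine protease inhibitor, was the 1 with an interval below 0 (72.3, 61.0 and 65.1 CPM), where 8.87% of all genes had one. None of the 9 SLCO transporters listed beside Slco3a1 reached 100 UMIs.

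Across 23 sums of a cell type in a library, the gene with the pattern most like that of Elavl4 was Rtl5 (Pearson's r of log2 CPM 0.92), that of Cxcl14 was Uchl1 (0.90), that of P4ha1 was Dars (0.89), that of Spink10 was Gpr137 (0.83), that of Slco3a1 was Rexo2 (0.81) and that of A830009L08Rik was Elavl4 (0.80). Spink10 and A830009L08Rik correlated with each other at 0.75, and Cxcl14 and P4ha1 at -0.28. The sums share their libraries and depths, so these values are descriptive.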

How the data were processed

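The authors dissociated pooled ILs, made 10x Genomics 3′ libraries and counted UMIs with Cell Ranger 3.0.2 (STAR 2.5.1b) on GRCm38, per the methods and the submitters' processing notes. The deposited tables hold raw UMI counts of genes by cells, without normalization, after removal of cells with few genes or high mitochondrial content. No deposited column of another kind was present, no cell annotation by the authors was used, and doublets were kept.

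The members and lists were chosen with earlier results of these data known. UMIs were summed over the cells of a group and given as CPM with exact Poisson intervals. The log2 ratio of 2 sums had an exact conditional (binomial) interval, and shares had exact Clopper-Pearson intervals, all at 95% and for counting error only. A count of 0 was given an exact Poisson interval as well. Ratios over all genes used genes with a row in both tables and at least 100 UMIs (20 in other cell types). Other cell types came from joint Leiden clustering (scanpy 1.11.5, igraph 0.11.9) without the members, Pomc, Xist, Tsix and Y-linked genes, named from marker lists by thresholds set after the data were seen. Cells meeting the melanotroph definition were removed from them. Thinning drew 2000 UMIs per cell without replacement and left out 55, 890 and 38 shallower melanotrophs of WT, P27NULL and S2CK. Likeness of patterns used log2(CPM + 10) over sums of at least 50000 UMIs and genes with at least 500 UMIs. Named genes were the members, up to 3 genes per list with the largest ratio of P27NULL to WT, the most alike genes and the neighbours in rank. Promoter windows of 4 members were found in the RefSeq table for GRCm38.p6, and bases inside an annotated gene were not shown, which left 3. The interval steps were tested on simulated counts. TMM factors came from edgeR 4.0.16 in R 4.3.3, and were used as 1 of the alternatives.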

Additional observations from a re-analysis of the deposited data

Results flagged for a closer look

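Cxcl14 had opposite directions in gonadotrophs and melanotrophs in each pair of libraries, with both counting intervals on opposite sides of 0 for the deposited counts and all cells. For P27NULL over WT the log2 ratio was -2.58 (-3.34 to -1.89, 21 and 95 UMIs) in gonadotrophs and 1.49 in melanotrophs. For S2CK over WT it was -0.94 (-1.71 to -0.23) in gonadotrophs and 1.23 in melanotrophs, and for S2CK over P27NULL it was 1.65 (0.69 to 2.60) and -0.26. The last melanotroph value is not firm, as its interval included 0 with TMM factors (-0.12, -0.29 to 0.05), with the total that left out Pomc, mitochondrial and ribosomal protein genes (-0.13, -0.30 to 0.04) and without the cycling cluster (-0.15, -0.34 to 0.04), and against female P27NULL cells it was 0.55, the direction of the gonadotrophs. The difference between the cell types was not tested, since each genotype is 1 library, and the 3 values share libraries. WT gonadotrophs numbered 47 and are male, while those of S2CK come from a library that read as female, and median UMIs per gonadotroph were 7287 in WT, 2611 in P27NULL and 4413 in S2CK, an order the level shares and whose part was not tested.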

How the results depend on the processing

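With 1 library per genotype, mouse, sex, dissection and sequencing run cannot be told apart from genotype, and no alternative can supply a replicate. No paired analysis was possible because each genotype has 1 library and the groups share only 1 replicate number. Under 15 alternatives (13 planned and 2, leaving out melanotrophs with a Cga, Lhb or Fshb UMI and leaving out the cycling cluster, added after the data were seen), 223 of 246 log2 ratios of single genes in melanotrophs stayed within their interval, 19 moved beyond it and 4 reversed. The count of genes 2-fold or more higher in P27NULL than WT stayed at 4, except for 5 with P27NULL cells that had a Y-linked UMI and 1 with female P27NULL cells. The count higher in S2CK than WT was 1 under every alternative run. The count lower in S2CK than P27NULL was 4, 3 with TMM factors, with thinning to 2000 UMIs or with a total that left out Pomc, mitochondrial and ribosomal protein genes, and 2 against female P27NULL cells. All 4 reversals came with female P27NULL cells, namely Slco3a1 in P27NULL over WT (-0.43) and, in S2CK over P27NULL, Cxcl14 (0.55), Elavl4 (0.062) and Slco3a1 (0.014). A further alternative, also added after the data were seen, left gonadotrophs out of the pooled other types, and the ratio of P27NULL to WT fell from 0.92 to 0.22 for Spink10 and from 0.89 to 0.27 for A830009L08Rik. Without the splits by sex, Slco3a1 in P27NULL over WT ran from 0.12, with cells thinned to 2000 UMIs, to 0.49, and the interval of the former included 0. All 18 shares of cells with a UMI fell on thinning, as fewer UMIs were drawn per cell.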
